A study of Mus musculus with 21 samples.

Results

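The heparan sulfate proteoglycans examined here are 4 glypicans (Gpc1, Gpc3, Gpc4 and Gpc6), all 4 syndecans (Sdc1 to Sdc4) and Hs3st1, an enzyme that modifies the sugar chains these core proteins carry. They are 9 of the 43436 genes listed in every library, and all 9 passed the filter on low values, which asked for 2 or more libraries at 1 FPKM or above and left 16650 genes to test. The members were picked by gene name, and their levels in all 10 groups were known when they were picked. Their levels and differences are therefore given as a description, with no p-value. A member said to be called passed the thresholds used for all genes. Nothing is read from such calls or their counts in any comparison.

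Heparan sulfate is a long, sulfated sugar chain built in the Golgi on a small set of core proteins. Glypicans hold their chains at the cell surface through a lipid anchor, whereas syndecans span the membrane and reach the cytoskeleton. The chains bind FGF, Wnt, Hedgehog and BMP ligands, and their sulfation pattern, set by enzymes such as Hs3st1, decides which proteins they bind. Mouse embryonic stem cells that lack heparan sulfate are known to leave the pluripotent state poorly, a defect tied to weak FGF signalling.

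The study followed chemical reprogramming, in which small molecules turn fibroblasts into pluripotent cells by way of cells that resemble extraembryonic endoderm (XEN), the lineage of the yolk sac. Transcript levels were measured by RNA sequencing in 21 mouse libraries, as FPKM, a fragment count corrected for gene length and library size. Intermediate cells from the reprogramming of embryonic fibroblasts were sampled at day 12 (1 library), day 16 (2), day 20 (1), day 26 (1) and day 28 (1). CeXEN cells (2 libraries) were derived from E3.5 embryos in stage 1 medium with VC6TFAE and 20 ng/ml bFGF. The eXEN libraries (2) came from 1 established embryo-derived line, kept in stage 1 medium with VC6TF and 20 ng/ml bFGF for replicate 1 and in traditional XEN medium for replicate 2. The other groups were chemically induced pluripotent stem cells (CiPSC, 7 lines with 1 library each, named C1 to C3, G1, G3, N4 and N6), embryonic stem cells from E3.5 embryos (ESC, 2 libraries) and embryonic fibroblasts from E13.5 embryos (MEF, 2 libraries). MEF, intermediates, CiPSC and ESC replicate 1 were of strain C57BL/6J-Tg(GOFGFP)11Imeg/RbrcxICR and ESC replicate 2 of C57BL/6 (B6)N, while both XEN groups were wild-type ICR. Wherever XEN cells are set against the others, cell type and strain cannot be told apart. XEN stands for CeXEN and eXEN together, and pluripotent for CiPSC and ESC together.

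The defining markers of the labelled cell types were present. The summed FPKM of 8 XEN markers was 911 to 1828 in intermediates, 1745 to 3920 in XEN cells, 6.73 to 16.4 in pluripotent cells and 42.1 to 91.0 in MEF. The summed FPKM of 8 pluripotency markers was 4436 to 5554 in CiPSC, 4874 and 4983 in ESC, 18.4 and 22.3 in MEF and 6.44 to 632 in intermediates. Estimated relative depth was 0.403 to 1.63 of that of ESC replicate 1. The p-values rest on a spread per gene that is pooled over all groups with replicate libraries. The CiPSC lines weigh most in it, and it also holds the difference in medium inside eXEN and in strain inside ESC. Days with a single library add nothing to it. No label tells if the other replicates grew as separate cultures, so their part of the spread may be technical. In 4 of the 6 intermediate libraries (day 12, day 16 replicate 1, day 20 and day 26) some loci carry a low-data status that occurs in none of the other 17 libraries.

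Gpc3 and Gpc4 are neighbours on the X chromosome. In mm10 they lie on the minus strand at chrX:52272426-52613950 and chrX:52053021-52165252, with 107173 bases and no annotated gene between them. Hs3st1 lies at chr5:39613935-39755475, also on the minus strand. The promoters of these 3 genes are printed because Gpc4 was lower in intermediates than in fibroblasts while its neighbour Gpc3 was not, and because Hs3st1 had the widest range of levels among the 9 genes. The sequences run from 250 bases before to 50 bases after the RefSeq start of each gene (GRCm38.p6, minus strand, 5′ to 3′), and capitals mark GGGCGG, the core of an Sp-factor GC box, on either strand.
Gpc3, chrX:52613925-52614224: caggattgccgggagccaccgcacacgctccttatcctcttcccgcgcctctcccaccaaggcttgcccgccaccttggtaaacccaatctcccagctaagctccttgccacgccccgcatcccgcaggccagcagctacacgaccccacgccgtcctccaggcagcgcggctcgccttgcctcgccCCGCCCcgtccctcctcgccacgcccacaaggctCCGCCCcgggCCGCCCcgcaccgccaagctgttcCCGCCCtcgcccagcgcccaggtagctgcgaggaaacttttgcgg
Gpc4, chrX:52164874-52165173: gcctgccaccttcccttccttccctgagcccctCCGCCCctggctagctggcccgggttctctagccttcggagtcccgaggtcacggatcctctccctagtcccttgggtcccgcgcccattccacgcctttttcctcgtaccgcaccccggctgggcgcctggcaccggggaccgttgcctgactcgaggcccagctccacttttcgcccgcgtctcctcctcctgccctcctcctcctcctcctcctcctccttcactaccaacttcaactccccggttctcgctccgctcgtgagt
Hs3st1, chr5:39644582-39644881: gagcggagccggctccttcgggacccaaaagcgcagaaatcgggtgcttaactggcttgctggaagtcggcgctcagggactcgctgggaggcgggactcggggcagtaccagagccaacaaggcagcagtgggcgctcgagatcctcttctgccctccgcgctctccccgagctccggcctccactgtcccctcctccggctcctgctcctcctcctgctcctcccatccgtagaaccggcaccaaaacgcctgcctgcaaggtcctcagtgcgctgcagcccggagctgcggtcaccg
Promoters of 6 of the 9 genes were matched (Gpc3, Gpc4, Sdc1, Sdc3, Sdc4 and Hs3st1). GGGCGG occurred 4 times for Gpc3 and Sdc4, 3 times for Sdc1 and Sdc3, once for Gpc4 and not in the 300-base window of Hs3st1, and 35.7% of 32851 promoter windows of the same length hold it. AGATAA or TGATAA on either strand, the core bound by GATA factors, was in none of the 6 windows and in 18.6% of all windows. AACAAT on either strand, a core bound by Sox factors, was likewise in none of the 6 and in 10.7% of all windows. The 6 windows held 66.3 to 77.7% G and C, against a median of 52.7% over all windows. The shares over all windows are therefore not a background matched in base content, and nothing is read from the motif counts. The windows of Hs3st1, Gpc4 and Sdc4 each lie within the longer locus given in the deposited files, so transcripts that start upstream have another promoter window.

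Hs3st1 encodes a 3-O-sulfotransferase, the enzyme known for placing the rare sulfate group that lets heparan sulfate bind antithrombin. In intermediates its FPKM was 217 at day 12, 356 and 214 at day 16, 274 at day 20, 271 at day 26 and 291 at day 28, against 0.998 and 0.502 in MEF. CeXEN libraries had 327 and 228 FPKM and eXEN libraries 77.3 and 247 FPKM. In CiPSC lines the lowest FPKM was 0.0630, the median 0.765 and the highest 1.31, against 1.11 and 0.743 in ESC.
The gene was thus at 77.3 FPKM or more in all 6 intermediate and all 4 XEN libraries and at 1.31 FPKM or less in the other 11. The level of day 12 already lay within the range of the later days, and the lowest library of the high set, eXEN replicate 1, was the one grown with VC6TF in stage 1 medium. Among CiPSC lines, N4 and N6 were lowest, at 0.0819 and 0.0630 FPKM. The lower and upper bounds deposited with these values were 0 to 0.317 and 0 to 0.494. They lay inside those of line C3 (0 to 1.76), so the order of these lines is not resolved. By percentile among tested genes, Hs3st1 stood at 97.2 to 98.4 in intermediates, 92.3 to 98.3 in XEN cells and 19.4 to 27.1 in MEF.
Hs3st1 made up 95.0 to 97.6% of the summed FPKM of 7 3-O-sulfotransferase genes in intermediates and 94.4 to 97.1% in XEN cells, against 22.1 and 12.9% in MEF and 1.95 to 31.2% in pluripotent cells. The sum itself was 221 to 367 FPKM in intermediates, against 4.51 and 3.91 FPKM in MEF. In MEF the largest share belonged to Hs3st3b1, another 3-O-sulfotransferase, with 52.5 and 39.2%. Among 11114 candidates, the genes whose 10 group means followed those of Hs3st1 most closely included Aqp8, a water channel (Pearson r = 0.999), and Sox17, an endoderm transcription factor (r = 0.997).

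**Figure D1:**
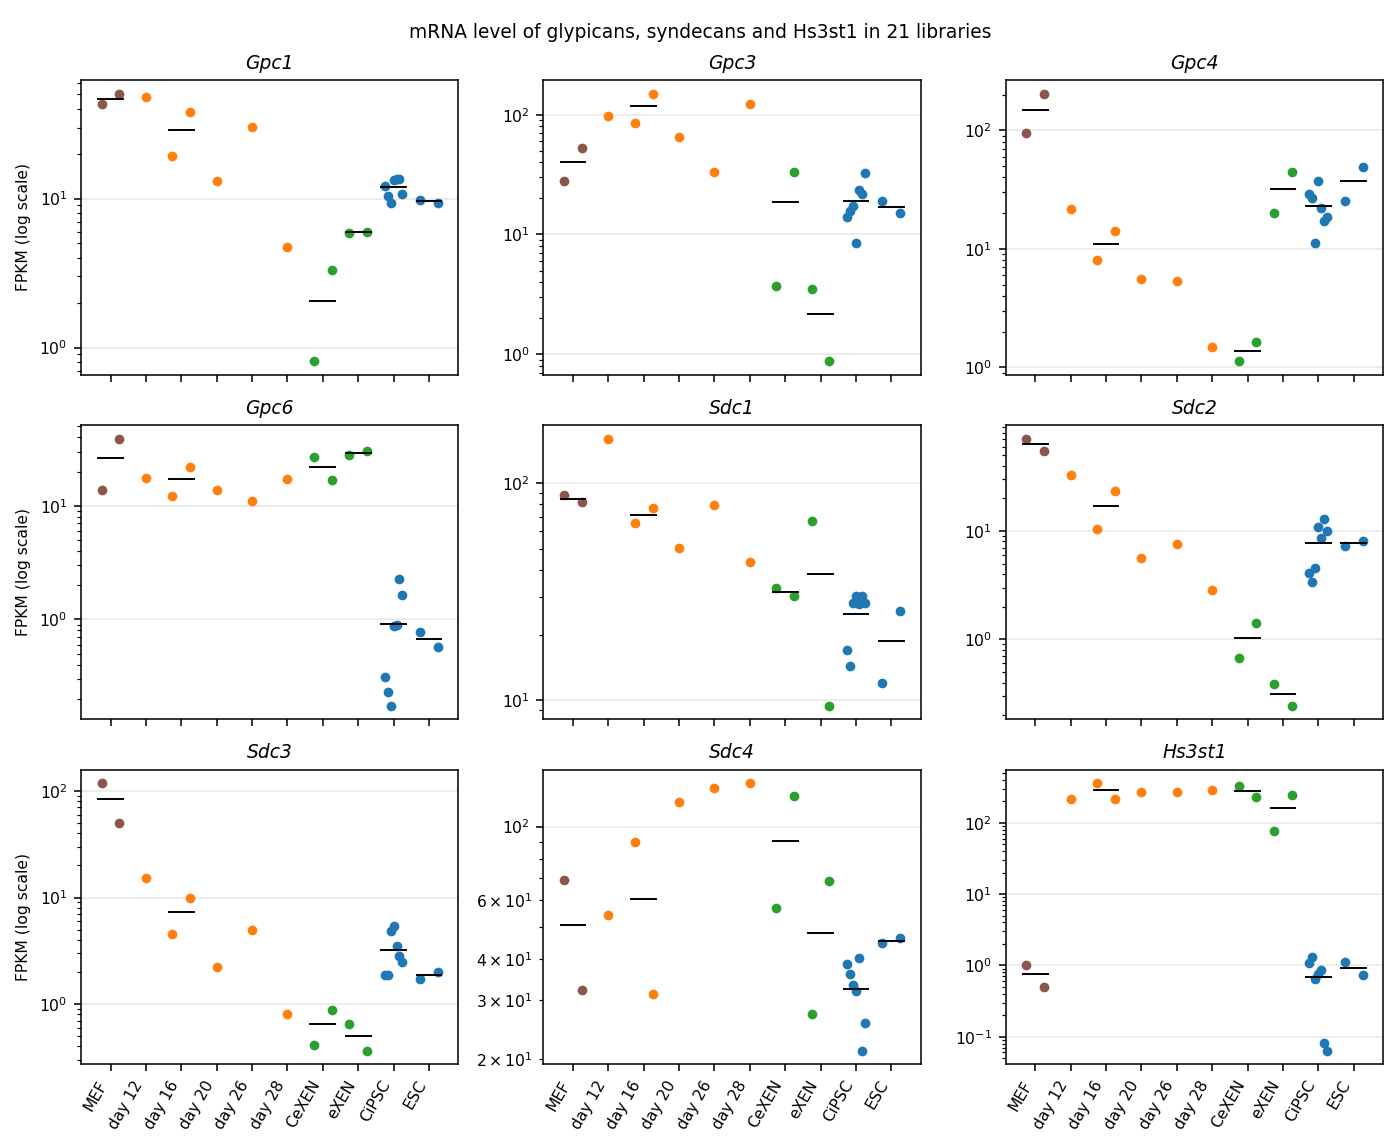
FPKM of the 9 genes (vertical axis, log scale, its range set for each gene) in the 21 libraries, by group along the time course and in the reference cell types. Each point is 1 library and a line is the mean of a group of 2 or more. Hs3st1 sits at 77.3 FPKM or above in the 10 intermediate and XEN libraries and at 1.31 FPKM or below in the others, while Sdc2, Sdc3 and Gpc4 are lower at day 28 than at day 12.

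Intermediates and MEF were compared to ask how the proteoglycans of the starting fibroblasts changed on the way to the XEN-like state. Hs3st1 was higher in intermediates, by 7.26 ± 0.40 (SE) in log2(FPKM + 1), a scale that understates changes of genes near 0. Gpc4, Sdc3, Sdc2 and Gpc1 were lower, by 4.18 ± 0.44, 3.86 ± 0.38, 2.60 ± 0.43 and 1.23 ± 0.29 in log2(FPKM + 1). Gpc3, Sdc4, Gpc6 and Sdc1 differed by 1.03 ± 0.62, 0.92 ± 0.43, -0.60 ± 0.43 and -0.23 ± 0.51. Past an adjusted p of 0.05 and a log2 difference of 1 were 1 gene higher and 4 genes lower of 9, where 17.1% of all tested genes were called higher and 9.32% lower. Without overlap between the groups, 1 gene was higher and 3 were lower, against 29.8% and 12.2% of all tested genes. These values were in view when the genes were picked, and nothing is read from the counts.

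Gpc4, a glypican known for its role in Wnt and FGF signalling, was the most abundant glypican of MEF. Its FPKM in intermediates was 21.8 at day 12, 8.09 and 14.1 at day 16, 5.59 at day 20, 5.39 at day 26 and 1.47 at day 28, against 94.9 and 204 in MEF. All 6 intermediate libraries lay below both MEF libraries, and the lowest was day 28.
Sdc3, the syndecan best known from neurons and muscle, had 15.3 FPKM at day 12, 4.52 and 9.99 at day 16, 2.24 at day 20, 4.93 at day 26 and 0.809 at day 28, against 117 and 49.7 in MEF. The groups did not overlap. A transcript annotated on the other strand, Gm26716, overlaps exons of Sdc3 and had 0.324 to 4.51 FPKM in intermediates, against 33.2 and 22.8 in MEF, and since the kit does not mark strand, reads of the pair cannot be told apart.
Sdc2, a syndecan of mesenchymal cells, had 32.9 FPKM at day 12, 10.4 and 23.5 at day 16, 5.60 at day 20, 7.57 at day 26 and 2.86 at day 28, against 71.1 and 54.7 in MEF. Here too all intermediates were below both MEF libraries. Gpc1, a glypican known as a partner of FGF signalling, had 48.2 FPKM at day 12, 19.4 and 38.3 at day 16, 13.1 at day 20, 30.2 at day 26 and 4.72 at day 28, against 43.1 and 50.6 in MEF, so that day 12 overlapped with MEF.
For all 4 of these genes, day 28 was the lowest intermediate library. The summed FPKM of 8 fibroblast markers was also lowest at day 28 among intermediates. It was 815 at day 12, 219 and 462 at day 16, 75.6 at day 20, 128 at day 26 and 16.1 at day 28, against 2746 and 10483 in MEF. At day 28, 4 of the 8 markers (Col3a1, Pdgfrb, Postn and Dcn) were under 1 FPKM. The part of the remaining fibroblasts in these levels was not tested, and in bulk RNA fewer cells of a type and less RNA per cell cannot be told apart.

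Gpc3, a glypican known as an inhibitor of Hedgehog signalling and growth, had 98.8 FPKM at day 12, 85.3 and 150.5 at day 16, 65.8 at day 20, 33.5 at day 26 and 124 at day 28, against 27.8 and 52.4 in MEF. Only the day 26 library fell within the MEF range. Sdc4, a widely expressed syndecan of focal adhesions, had 54.4 FPKM at day 12, 90.0 and 31.3 at day 16, 119 at day 20, 131 at day 26 and 135 at day 28, against 68.9 and 32.4 in MEF, and day 16 replicate 1 and the 3 libraries from day 20 on were above both MEF libraries. Sdc1, the main syndecan of epithelia, peaked at 161 FPKM at day 12, with 43.2 to 79.5 FPKM at the later days, against 87.9 and 81.9 in MEF. Gpc6, a glypican known for promoting Hedgehog signalling in growing bone, stayed between 11.0 and 22.0 FPKM in intermediates, against 13.7 and 39.1 in MEF.
The make-up of both families shifted. Gpc3 was 38.9 to 81.1% of the summed FPKM of the 6 glypican genes in intermediates, against 15.1 and 15.0% in MEF, and Gpc4 was 0.962 to 11.2%, against 51.8 and 58.2%. Sdc4 was 20.7 to 74.2% of the syndecan sum in intermediates, against 19.9 and 14.8% in MEF. The other 2 glypicans were minor: Gpc2 had 5.21 to 13.8 FPKM in intermediates and 3.91 and 4.04 FPKM in MEF, and Gpc5 did not exceed 0.141 FPKM in any library.

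**Figure D2:**
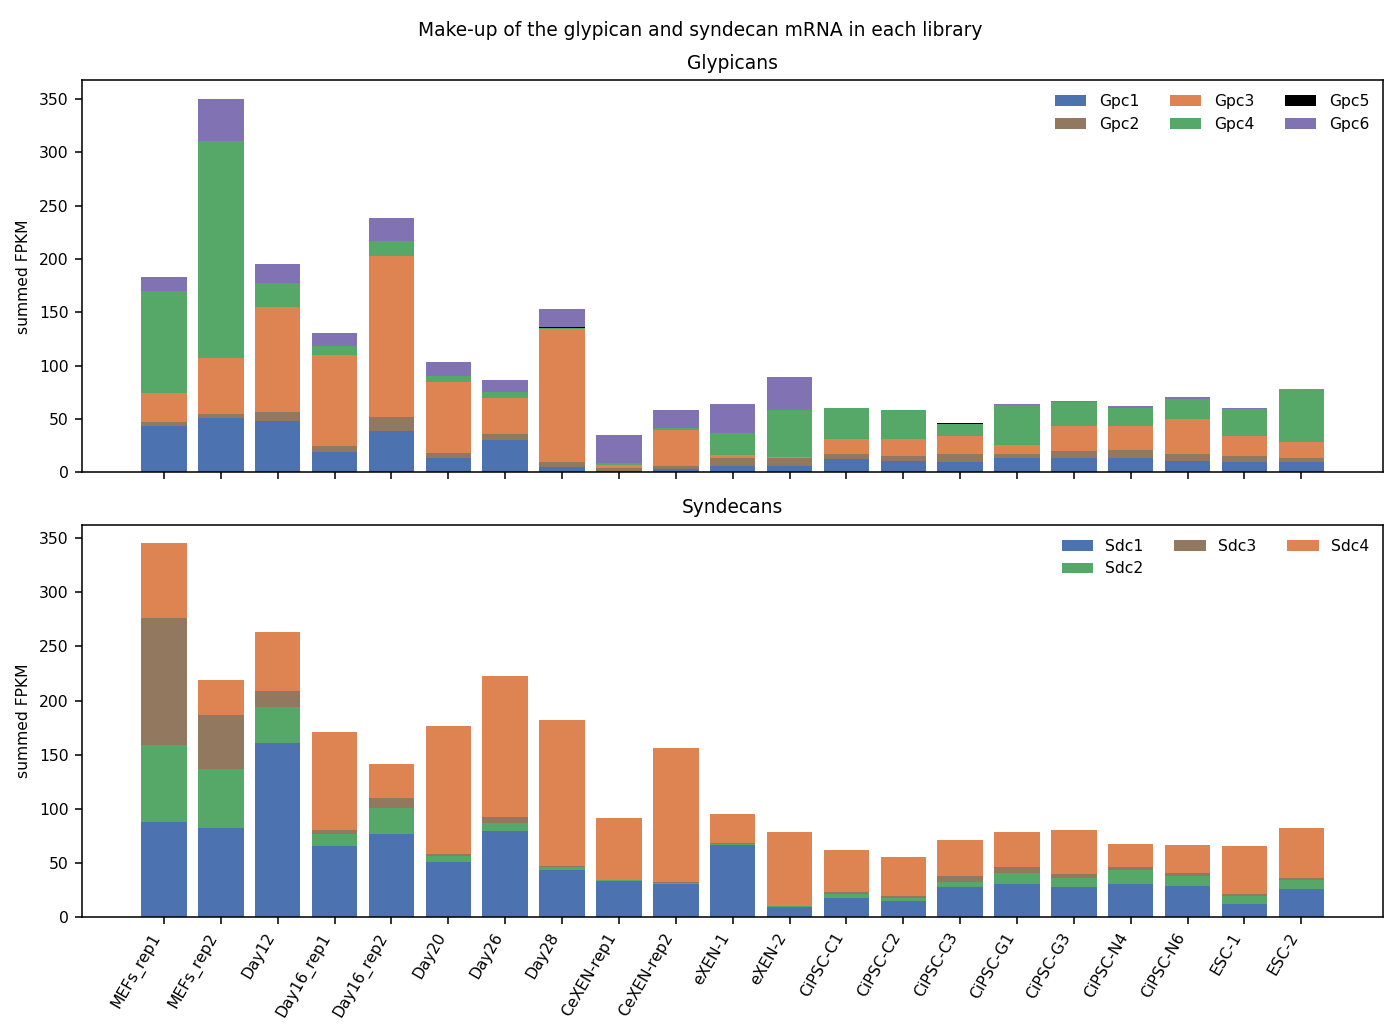
Summed FPKM of the 6 glypican genes (top) and the 4 syndecan genes (bottom) in each library (horizontal axis), with each gene as a coloured part of the bar. The Gpc4 part is 51.8 and 58.2% of the glypican bar in MEF, the Gpc3 part 81.1% at day 28, and the Sdc4 part 74.2% of the syndecan bar at day 28.

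Genes that build, edit and break down heparan sulfate moved in both directions between intermediates and MEF. Of 30 synthesis genes tested (35 listed), 6 rose and 6 fell, with a median log2 difference of 0.15. The median over all tested genes was itself 0.22 here, 0.18 for intermediates minus XEN and -0.20 for XEN minus pluripotent, and -0.02, -0.08 and 0.01 after quantile normalization. Slc26a2, a sulfate transporter, rose (37.6 ± 6.79 FPKM in intermediates and 3.68 ± 1.27 in MEF, SD; adjusted p = 7.28e-08), while Papss2, which makes the sulfate donor PAPS, fell (0.817 ± 0.365 and 9.80 ± 0.321 FPKM; adjusted p = 1.3e-07). Among sulfotransferases, Hs3st3b1 rose by 1.53 ± 0.29 and Hs6st2, which adds 6-O-sulfate, fell by 2.35 ± 0.44 on the log2 scale.
The 2 extracellular sulfatases that remove 6-O-sulfate moved apart. Sulf2 rose to 191 ± 47.3 FPKM in intermediates, against 60.2 ± 27.1 in MEF (adjusted p = 0.000978), and Sulf1 fell to 6.08 ± 3.89 FPKM, against 29.9 ± 12.6 (adjusted p = 0.000131). Hpse, the heparanase that cuts the chains, rose to 17.4 ± 8.14 FPKM in intermediates, against 0.986 ± 0.542 in MEF (adjusted p = 5.65e-07).
Of 9 other core proteins tested, 3 rose (Spock1, Spock2 and Agrn) and 3 fell (Nrp1, Cd44 and Hspg2). Spock1, a secreted testican, had 35.3 ± 30.7 FPKM in intermediates and 0.132 ± 0.0807 in MEF (adjusted p = 3.16e-09), and Agrn, the basement membrane protein agrin, 102 ± 20.2 and 21.4 ± 9.61 (adjusted p = 0.000177). Hspg2, the basement membrane protein perlecan, had 35.7 ± 10.6 FPKM in intermediates and 128 ± 7.81 in MEF (adjusted p = 0.000308). Of 12 proteases, lipases and adaptor genes, 4 rose and 4 fell, among them Notum, a lipase of Wnt proteins, which had 31.9 ± 30.9 FPKM in intermediates and 0.0799 ± 0.0424 in MEF, and Mmp14, a membrane protease that can shed Sdc1, which had 56.2 ± 55.5 and 373 ± 21.8 (adjusted p = 2.89e-05 and 0.000267).
When these groups alone were fitted, 17 of the 32 pathway genes named by the rule lost their call, among them Sulf1, Sulf2, Hs3st3b1 and Hs6st2 (adjusted p = 0.0718, 0.0666, 0.0686 and 0.0948), and the synthesis calls fell to 6 in all. Without MEF replicate 1, 6 of the 32 lost it (Cd44, Gusb, Hs2st1, Naglu, Ndst1 and Ugdh), and Sdc3 differed by -3.24 without MEF replicate 1 and by -4.47 without MEF replicate 2. Gpc6 differed by -1.32 and 0.13, Gpc3 by 0.59 and 1.48 and Sdc4 by 1.46 and 0.39 without MEF replicate 1 and 2 in turn, and Gpc1 by -0.75, under the threshold of 1, with day 16 in place of all days.

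Intermediates and XEN cells were compared to ask how close the reprogramming cells came to embryo-derived XEN cells. Gpc3, Sdc2, Gpc1, Sdc3 and Sdc1 were higher in intermediates, and the other 4 genes were not called. The differences in log2(FPKM + 1) were 3.72 ± 0.49 for Gpc3, 2.68 ± 0.34 for Sdc2, 2.21 ± 0.23 for Gpc1, 1.78 ± 0.30 for Sdc3 and 1.32 ± 0.41 for Sdc1. For Hs3st1, Sdc4, Gpc4 and Gpc6 they were 0.44 ± 0.32, 0.58 ± 0.35, -0.14 ± 0.35 and -0.69 ± 0.34. That is 5 of 9 genes called higher, where 14.6% of all tested genes were, and 2 (Gpc3 and Sdc2) higher without overlap, where 15.7% were. No member was called lower or was lower without overlap, and 2.61% and 3.77% of all tested genes were. As before, nothing is read from counts of the 9 genes.
Gpc3 had 33.5 to 150.5 FPKM in intermediates, against 3.69 and 33.5 in CeXEN and 3.48 and 0.874 in eXEN. CeXEN replicate 2 lay just under day 26, with deposited bounds that overlapped (30.7 to 36.2 and 31.2 to 35.8 FPKM). The other XEN libraries were at 3.69 FPKM or below. Sdc2 had 2.86 to 32.9 FPKM in intermediates, against 0.673 and 1.41 in CeXEN and 0.388 and 0.243 in eXEN, with day 28 closest to the XEN cells. Its bounds at day 28 (1.07 to 4.65 FPKM) overlapped those of CeXEN replicate 2 (0 to 3.07 FPKM).
Sdc3 followed the same order, with 0.809 to 15.3 FPKM in intermediates, against 0.363 to 0.880 FPKM in XEN cells, and here day 28 fell inside the XEN range. Gpc1 had 4.72 to 48.2 FPKM in intermediates, against 0.811 to 5.98 in XEN cells, and again day 28 was the library that overlapped. Gpc4 at day 28, with 1.47 FPKM, also lay between the CeXEN values of 1.13 and 1.64 FPKM.
Of the 30 synthesis genes tested, 5 rose in intermediates relative to XEN cells, among them Pxylp1, a phosphatase of the linker sugar (adjusted p = 0.000517), B3galt6, a linker galactosyltransferase (adjusted p = 0.000918), and Slc26a2 (37.6 ± 6.79 FPKM in intermediates and 17.6 ± 2.04 in XEN cells; adjusted p = 0.000177). The median log2 difference of the 30 was 0.31, against 0.18 over all tested genes. Hpse had 17.4 ± 8.14 FPKM in intermediates and 1.10 ± 1.06 in XEN cells (adjusted p = 1.03e-07), and Col18a1, a basement membrane collagen with heparan sulfate chains, had 68.0 ± 78.0 and 1.42 ± 1.36 (adjusted p = 1.8e-06). Spock1 went the other way, with 35.3 ± 30.7 FPKM in intermediates and 166 ± 47.6 in XEN cells (adjusted p = 2.56e-07).
Pxylp1 lost its call after quantile normalization, and B3galt6 and Slc26a2 after quantile normalization, after median-of-ratios scaling and with day 16 in place of all days; B3galt6 also lost it without eXEN replicate 1, and Slc26a2 over the days without low-data loci. With day 16 alone, Gpc4 and Sdc4 changed sign without being called and the synthesis calls dropped to 2. Hs3st1 differed by 0.03 without eXEN replicate 1 and by 0.86 without eXEN replicate 2. Gpc3 differed by 3.0 without CeXEN replicate 1, and Sdc1 by 0.64 without eXEN replicate 2 and by 2.0 without eXEN replicate 1.

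**Figure D3:**
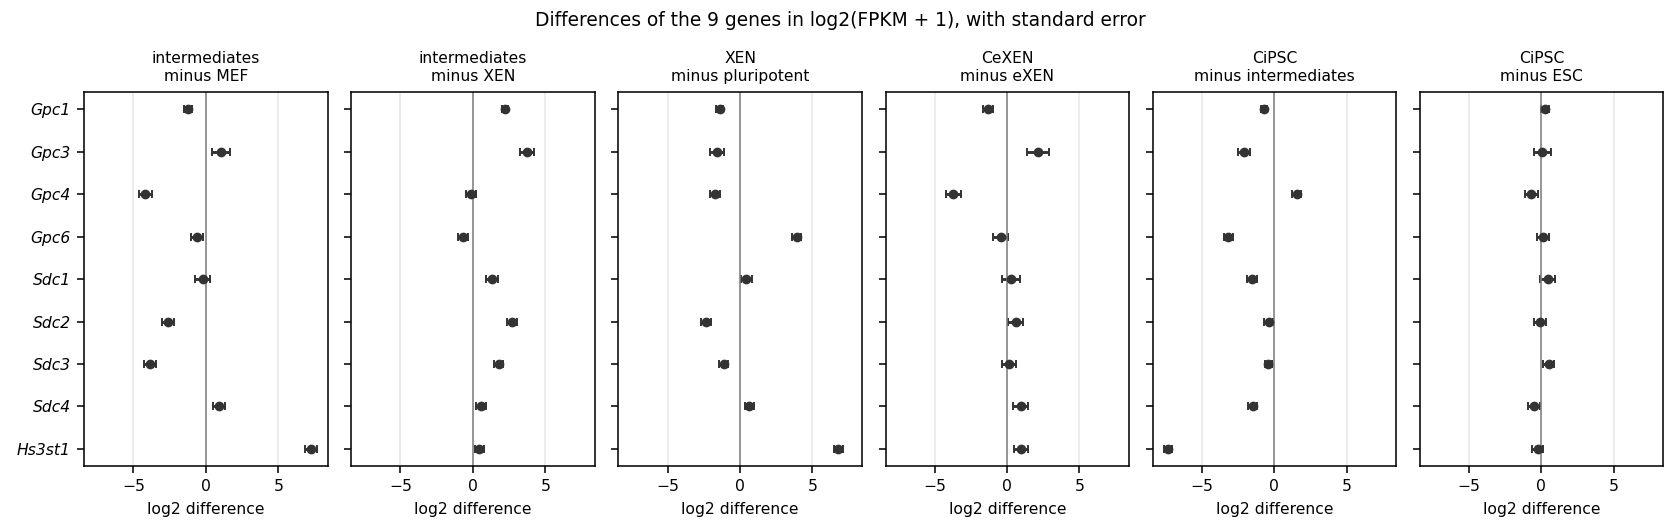
Difference of each of the 9 genes in log2(FPKM + 1) (horizontal axis) in the 6 comparisons, first-named group minus the second, with bars for the standard error of the fit. Hs3st1 reaches 7.26 for intermediates minus MEF and -7.35 for CiPSC minus intermediates, while the largest size for CiPSC minus ESC is -0.67, for Gpc4.

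XEN and pluripotent cells stand for lineages next to each other in the early embryo. Hs3st1 and Gpc6 were higher in XEN cells, by 6.79 ± 0.31 and 3.91 ± 0.34 in log2(FPKM + 1). Sdc2, Gpc4, Gpc3, Gpc1 and Sdc3 were lower, with differences of -2.36 ± 0.33, -1.75 ± 0.34, -1.60 ± 0.48, -1.40 ± 0.23 and -1.13 ± 0.30. Sdc4 and Sdc1 differed by 0.66 ± 0.34 and 0.44 ± 0.40. In all, 2 genes were called higher and 5 lower, where 10.9% of all tested genes were called higher and 18.6% lower. Without overlap, 2 were higher and 3 lower (Gpc1, Sdc2 and Sdc3), against 11.3% and 24.7% of all tested genes.
Gpc6 had 26.9 and 16.9 FPKM in CeXEN and 27.8 and 30.7 in eXEN. In CiPSC its lowest FPKM was 0.172, the median 0.871 and the highest 2.26, and ESC had 0.773 and 0.570. Every XEN library was therefore above every pluripotent one, and the pluripotent percentile of Gpc6 among tested genes was 8.34 to 32.7. The 3 genes that followed Gpc6 most closely over the 10 groups were Zfp319 (r = 0.987), Extl2, a glycosyltransferase of the heparan sulfate pathway (r = 0.984), and Slc36a4 (r = 0.984).
Sdc2 had 0.243 to 1.41 FPKM in XEN cells and 3.35 to 12.8 FPKM in pluripotent cells, and Gpc1 had 0.811 to 5.98 and 9.34 to 13.6 FPKM. Both were lower in all 4 XEN libraries. For Sdc2, though, the deposited bounds of CeXEN replicate 2 (0 to 3.07 FPKM) overlapped those of CiPSC line C2 (2.57 to 4.13 FPKM). Sdc3 was near 0 in XEN cells, with 0.363 to 0.880 FPKM, against 1.71 to 5.37 FPKM in pluripotent cells. Its bounds in CeXEN replicate 2 (0 to 1.77 FPKM) overlapped those in ESC replicate 1 (1.05 to 2.38 FPKM). Gm26716, whose reads cannot be told apart from those of Sdc3, had 1.82 FPKM in CeXEN replicate 2. Gpc4 did not separate the classes: CeXEN lay at 1.13 and 1.64 FPKM and eXEN at 20.0 and 44.5 FPKM, while pluripotent libraries had 11.3 to 49.2 FPKM. Gpc3 did not separate them either, with 8.53 to 32.5 FPKM in pluripotent libraries. CeXEN replicate 2, at 33.5 FPKM, was above that range, and the other XEN libraries, at 3.69 FPKM or less, were below it.
Of the 30 heparan sulfate synthesis genes tested, 13 rose and 1 fell in XEN cells relative to pluripotent cells, with a median log2 difference of 0.63, against -0.20 over all tested genes. Extl2 had 12.8 ± 2.19 FPKM in XEN cells and 1.84 ± 0.477 in pluripotent cells (adjusted p = 4.18e-08). Ext1, a subunit of the chain polymerase, had 37.6 ± 20.2 and 9.89 ± 1.58 FPKM (adjusted p = 4.88e-07), and Hs6st2 had 18.1 ± 13.9 and 1.36 ± 0.934 FPKM (adjusted p = 5.35e-06). Papss1 and Slc26a2 of the sulfate donor supply rose by 1.84 ± 0.26 and 1.71 ± 0.16 (adjusted p = 3.64e-05 and 8.23e-07).
Of 9 enzymes of heparan sulfate breakdown, 4 rose and 1 fell. Naglu had 63.9 ± 28.7 FPKM in XEN cells and 1.52 ± 1.08 in pluripotent cells (adjusted p = 1.31e-08). Gusb, the β-glucuronidase, fell (3.71 ± 3.79 and 11.9 ± 2.89 FPKM; adjusted p = 3.11e-06). Spock1 reached 166 ± 47.6 FPKM in XEN cells, against 0.522 ± 0.234 in pluripotent cells (adjusted p = 2.44e-12), and Adam10, a protease that sheds cell surface proteins, 145 ± 59.2 FPKM, against 12.9 ± 2.16 (adjusted p = 2.03e-09).
Sdc3 differed by -0.54 after quantile normalization and Gpc3 by -0.88 without CeXEN replicate 1 and by -2.32 without CeXEN replicate 2. Sdc1 differed by -0.23 without eXEN replicate 1 and by 1.12 without eXEN replicate 2. Cd44, a further core protein, was called higher (adjusted p = 0.00757) but not without eXEN replicate 1 (adjusted p = 0.0501).

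**Figure D4:**
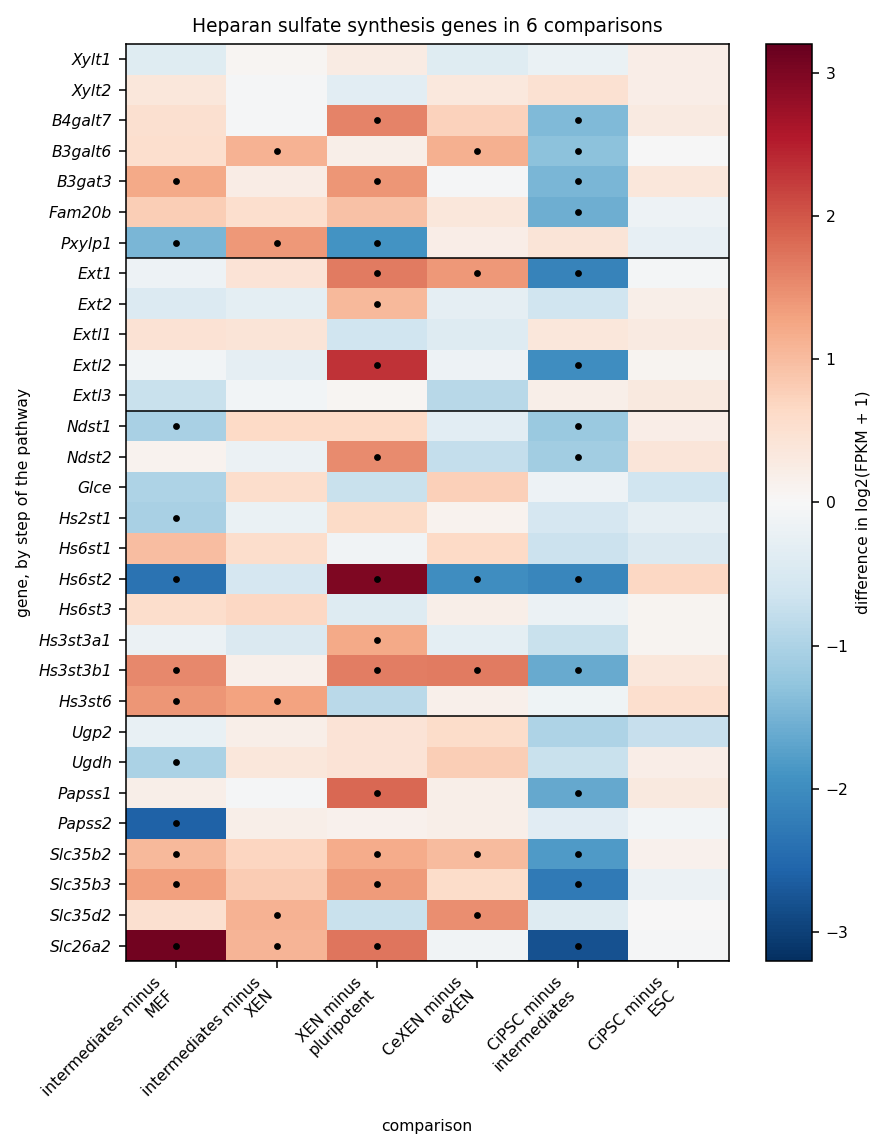
Difference in log2(FPKM + 1) of the 30 tested heparan sulfate synthesis genes (rows, ordered from linker enzymes over polymerases and modifying enzymes to precursor supply, with lines between them) in the 6 comparisons (columns). Colour gives the difference, first-named group minus the second, and a dot marks an adjusted p under 0.05 with a difference of at least 1. XEN minus pluripotent holds 13 higher and 1 lower call, CiPSC minus intermediates 14 lower calls, and CiPSC minus ESC no call.

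CeXEN and eXEN cells were both taken from embryos but differ in line and medium. Gpc4 and Gpc1 were lower in CeXEN, by 3.70 ± 0.53 and 1.31 ± 0.35 in log2(FPKM + 1). Gpc4 had 1.13 and 1.64 FPKM in CeXEN, against 20.0 and 44.5 in eXEN, and Gpc1 had 0.811 and 3.31 FPKM in CeXEN, against 5.92 and 5.98 in eXEN. These are the 2 genes past the thresholds of 9, where 6.47% of all tested genes were called, 4.01% higher and 2.46% lower. With these 4 libraries fitted alone, no gene of all those tested was called, so Gpc4 and Gpc1 did not keep their calls either. Without overlap, 2 were higher (Gpc3 and Sdc2) and 3 lower (Gpc1, Gpc4 and Gpc6), against 25.2% and 17.5% of all tested genes.
Gpc3, the X-linked neighbour of Gpc4, had 3.69 and 33.5 FPKM in CeXEN, against 3.48 and 0.874 in eXEN, a difference of 2.13 ± 0.75 that was not called. Xist, the RNA that coats the inactive X chromosome, also differed between these libraries, with 5.74 and 8.41 FPKM in CeXEN, against 0.00347 and 0.00330 in eXEN. It differed inside other groups as well, with 0.00358 and 4.20 FPKM in MEF replicates 1 and 2 and 4.15 and 22.7 FPKM in day 16 replicates 1 and 2. The part of Xist in the levels of the 2 X-linked glypicans was not tested in any comparison. The other 6 genes differed by -0.44 ± 0.52 (Gpc6) to 0.97 ± 0.48 (Hs3st1).
The spread inside eXEN, whose 2 libraries differ in medium, was wide for several genes. Sdc1 had 66.7 FPKM in stage 1 medium and 9.38 in traditional XEN medium, Sdc4 had 27.4 and 68.6, and Hs3st1 had 77.3 and 247. With 1 library per medium there is no test of this contrast.
Of the synthesis genes, 5 rose and 1 fell in CeXEN, among them Ext1 (54.8 ± 4.70 FPKM in CeXEN and 20.5 ± 4.09 in eXEN; adjusted p = 0.00222) and Hs6st2 (6.67 ± 0.141 and 29.6 ± 7.06; adjusted p = 0.0375). Hspg2 had 40.0 ± 15.8 FPKM in CeXEN and 142 ± 38.9 in eXEN (adjusted p = 0.0109). All 8 pathway genes named by the rule lost their call when these 4 libraries alone were fitted, with an adjusted p of 0.206 for Ext1, and 6 of the 8 lost it when 1 replicate was left out. Without CeXEN replicate 1 and 2 in turn, Gpc1 differed by -0.69 and -1.94 and Gpc3 by 3.57 and 0.70. Without eXEN replicate 1 and 2 in turn, Sdc1 differed by 1.65 and -1.06, Hs3st1 by 0.14 and 1.81 and Sdc4 by 0.29 and 1.58.

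CiPSC and intermediates were compared to ask what became of the XEN-like pattern at the end of reprogramming. Hs3st1, Gpc6, Gpc3, Sdc1 and Sdc4 were lower in CiPSC, with differences of -7.35 ± 0.27, -3.17 ± 0.30, -2.09 ± 0.42, -1.54 ± 0.35 and -1.48 ± 0.30 in log2(FPKM + 1), and Gpc4 was higher, by 1.56 ± 0.30. Gpc1, Sdc3 and Sdc2 differed by -0.67 ± 0.20, -0.40 ± 0.26 and -0.38 ± 0.30. The calls, 1 higher and 5 lower of 9, stand beside 33.1% of all tested genes called, 14.8% higher and 18.2% lower. Without overlap, 4 were lower (Hs3st1, Gpc6, Gpc3 and Sdc1), where 20.6% of all tested genes were, and none higher, where 20.4% were.
Gpc4 had a lowest FPKM of 11.3, a median of 22.2 and a highest of 37.1 in CiPSC, against 1.47 to 21.8 in intermediates. Day 12 and day 16 replicate 2, at 21.8 and 14.1 FPKM, reached into the CiPSC range, while the other 4 libraries had 8.09 FPKM or less. Gpc3 had a lowest FPKM of 8.53, a median of 17.4 and a highest of 32.5 in CiPSC, against 33.5 to 150.5 in intermediates, so that the values did not overlap. The deposited bounds of line N6 (29.8 to 35.3 FPKM) and of day 26 (31.2 to 35.8 FPKM) did, so the separation of these libraries is not resolved.
Sdc1 had 14.4, 27.9 and 30.1 FPKM as its lowest, median and highest in CiPSC, against 43.2 to 161 in intermediates, and did not overlap either. Sdc4 had 21.1, 33.4 and 40.4 FPKM in the same order, against 31.3 to 135 in intermediates, with day 16 replicate 2 inside the CiPSC range. Of the glypican sum, Gpc4 was 24.4 to 57.9% in CiPSC, against 0.962 to 11.2% in intermediates, and Gpc3 was 13.3 to 46.1% in CiPSC, against 38.9 to 81.1% in intermediates. Gpc3 remained the larger of the pair in 4 of the 7 CiPSC lines (C3, G3, N4 and N6).
Of the 30 synthesis genes, 14 fell in CiPSC and the median log2 difference was -0.85, against -0.04 over all tested genes. Of the linker enzymes, 4 of 7 fell, among them Fam20b, the xylose kinase (8.66 ± 0.865 FPKM in CiPSC and 26.9 ± 2.54 in intermediates; adjusted p = 1.52e-08). Ext1 fell to 9.84 ± 1.81 FPKM, against 46.2 ± 8.75 (adjusted p = 7.2e-09), and Slc26a2 to 4.66 ± 0.746 FPKM, against 37.6 ± 6.79 (adjusted p = 1.03e-09). Ndst1, an N-sulfotransferase, fell by 1.18 ± 0.18 on the log2 scale (adjusted p = 5.18e-05).
Of 9 lysosomal and heparanase genes, 6 fell, among them Hpse (1.10 ± 0.544 FPKM in CiPSC and 17.4 ± 8.14 in intermediates; adjusted p = 3.89e-09). Of 12 proteases, lipases and adaptors, 6 fell, among them Mmp2 (4.50 ± 1.29 and 102 ± 51.9 FPKM; adjusted p = 3.48e-09) and Sdcbp, the adaptor syntenin that binds syndecan tails (26.1 ± 4.34 and 92.6 ± 21.6 FPKM; adjusted p = 9.45e-09). All 25 pathway genes named by the rule kept their call under every alternative. Among the 9 members, Sdc4 differed by -0.73 with day 16 in place of all days, and Gpc4 by 0.96.

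CiPSC and ESC, both pluripotent, were set side by side as the end point of reprogramming and its natural counterpart. The 9 genes differed by -0.67 ± 0.42 (Gpc4) to 0.51 ± 0.37 (Sdc3) in log2(FPKM + 1). Without ESC replicate 1 and 2 in turn, Gpc4 differed by -1.14 and -0.21 and Sdc1 by -0.08 and 0.96. Sdc4 was the gene whose groups did not overlap, with 21.1 to 40.4 FPKM in CiPSC, against 44.6 and 46.1 in ESC, 1 of 9 genes lower without overlap, where 7.68% of all tested genes were. Hs3st1 had 0.0630 to 1.31 FPKM in CiPSC and 1.11 and 0.743 in ESC, and Gpc6 0.172 to 2.26 and 0.773 and 0.570.
Levels varied among the CiPSC lines. Sdc2 had 3.35 to 4.55 FPKM in lines C1, C2 and C3 and 8.65 to 12.8 FPKM in G1, G3, N4 and N6, against 7.25 and 8.11 FPKM in ESC. Gpc6 had 0.172 to 0.311 FPKM in C1, C2 and C3, 0.871 and 0.890 in G1 and G3, and 2.26 and 1.65 in N4 and N6. The labels do not say what the letters of the line names stand for, and lines of different letters were not compared by a test. By Dixon's test of the highest and the lowest line, no gap of the 9 genes passed the critical value of 0.568, and the widest was 0.365 of the range (Gpc3, line N6). The test cannot flag lines that stand apart together, such as N4 and N6 for Hs3st1 (0.0819 and 0.0630 FPKM). It also used values that were in view when the genes were picked, so it does not show that the lines are alike.
None of the 30 synthesis genes was called by limma after Benjamini-Hochberg adjustment, and 2 were lower at an unadjusted p under 0.05. Over all 16650 genes, 10 were called (6 higher and 4 lower), and 565 were higher and 847 lower at an unadjusted p under 0.05. None of the 9 members was called, where 0.0601% of all tested genes were, 0.036% higher and 0.024% lower.

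Across the 21 libraries the members fell into loose sets, given as Pearson r of log2(FPKM + 1) over libraries that share their groups. Sdc2 and Sdc3 were most alike (r = 0.91), followed by Gpc1 with Sdc2 (0.87) and Gpc1 with Sdc3 (0.84). Gpc6 with Hs3st1 had 0.74 and Sdc4 with Hs3st1 0.68, whereas Gpc4 with Hs3st1 had -0.64. Over the 10 group means, Sdc3 was closest to Plxdc2, Nuak1 and Loxl1 (r = 0.990, 0.989 and 0.987), and Sdc2 to Capg, Tpm2 and Trnp1 (r = 0.981, 0.980 and 0.979). For Gpc4 the closest genes were Myh10, Fat1 and Sept8 (r = 0.983, 0.979 and 0.978), and for Gpc1 Slc48a1, Ap2m1 and Prrx2 (r = 0.973, 0.958 and 0.953). Gpc3 was closest to Fam98a, Add1 and Zfp422 (r = 0.957, 0.949 and 0.941), Sdc4 to Rnf141, Zscan2 and Zbtb5 (0.956, 0.955 and 0.951), and Sdc1 to Prmt2, Tm2d2 and Cdkn2b (0.984, 0.976 and 0.975).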

How the data were processed

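The 21 libraries were grouped by the GEO labels into 10 groups. The authors deposited 1 table of FPKM per gene for each library, and the submitters' processing notes name TopHat, Cufflinks and the build mm10. Tool versions and the gene model release are not given in the sources used here. RNA was isolated with an RNeasy kit and libraries were made with a NEBNext Ultra kit, which does not mark strand, per the labels' protocols. Each file holds 43496 loci, and 43436 gene IDs occur in every file. FPKM hold no read counts, so absolute depth is unknown. The files do give a lower and an upper bound for each FPKM. Relative depth was estimated from the upper bounds, and bounds of the members are given here only for some low or close values.

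FPKM were tested as log2(FPKM + 1) with limma 3.58.1 in R 4.3.3 (intensity trend, 10 group means, 21 libraries, 11 residual degrees of freedom). Genes at 1 FPKM or above in 2 or more libraries entered, 16650 in all, and p-values were adjusted by the Benjamini-Hochberg method over all of them. A call needed an adjusted p under 0.05 and a log2 difference of at least 1. The 6 comparisons weight groups, and so days, equally, and share groups with each other. Per-class means ± SD are over libraries. The members and gene lists were chosen with earlier results of these data known. Named pathway genes are, per list, comparison and direction, up to 3 called genes with the largest difference among those with a group mean of at least 5 FPKM; the 3 most alike genes per member use the same minimum. Scripts were tested on simulated data. Alternatives covered the pseudocount, filters, scaling, prior variance, samples fitted, days, replicates and a replicate block. Other steps used Python 3.11.15. Some genes that the naming rule selects are not reported here.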

Additional observations from a re-analysis of the deposited data

How the results depend on the processing

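Under the alternatives, no called difference of the 9 genes changed sign, a check that leaves out the uncalled ones. Some uncalled differences did change sign, among them Gpc6 for intermediates minus MEF (-1.32 to 0.13) and Sdc1 for XEN minus pluripotent (-0.23 to 1.12). Some called differences fell under a size of 1, such as Sdc3 for XEN minus pluripotent (-0.54). Of 825 alternative values of the 54 differences, 47 moved by more than the spread between replicates. Of 1739 alternative values for 108 named pathway differences, 90 were no longer past the thresholds. With a pseudocount of 0.1, 4423 genes were called between intermediates and XEN cells (2864 otherwise), and 5 between CiPSC and ESC (10 otherwise). A minimum of 5 FPKM gave 5 genes for CiPSC and ESC, and 3 synthesis genes for intermediates and XEN cells (5 otherwise). For the same synthesis genes quantile normalization gave 1, median-of-ratios scaling 3 and day 16 in place of all days 2. For CeXEN and eXEN, quantile normalization gave 3 synthesis genes (6 otherwise). Fitting only the groups compared gave 1610 genes and 6 synthesis genes for intermediates and MEF (4395 and 12 otherwise), 26 genes for CiPSC and ESC, and 0 genes and 0 synthesis genes for CeXEN and eXEN (1077 otherwise), where limma gave 1286 higher and 898 lower at an unadjusted p under 0.05. The cause was not tested. Leaving out 1 replicate gave 550 to 1847 genes (550 without CeXEN replicate 2, 567 without eXEN replicate 2 and 1847 without CeXEN replicate 1) and 3 to 5 synthesis genes for CeXEN and eXEN, and 12 to 51 genes for CiPSC and ESC (51 without ESC replicate 1). Of the called genes, 64.7% were higher in intermediates than in MEF, against 48.7% after quantile normalization and 49.6% after median-of-ratios scaling. For intermediates and XEN cells the share was 84.8%, against 58.4% and 74.0%, and quantile normalization gave 50.3% in place of 36.9% for XEN and pluripotent cells and 49.8% in place of 62.0% for CeXEN and eXEN. With the replicate block, 4403, 2875, 4915, 1084, 5500 and 9 genes were called in the 6 comparisons in the order of the text. Deviations of same-numbered libraries in 10 pairs of groups correlated at r = -0.116 to 0.0510. The 2 eXEN replicates also differ in medium and the 2 ESC replicates in strain, which enters the pairs that hold these groups. The labels do not say if the numbers pair libraries, and a shared culture or preparation was not tested. The days without low-data loci and the fit without CiPSC line C3 were chosen after seeing the data. FPKM without counts limit what can be said of genes near 0.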

Other observations

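Chondroitin and dermatan sulfate enzymes, which use the same linker sugars as heparan sulfate, also differed between the cell classes. In intermediates relative to MEF, 1 of 15 tested rose and 6 fell, where 17.1% of all tested genes were called higher and 9.32% lower. Chsy1 and Dsel, among those that fell, lost their call when these groups alone were fitted. Chst15, a chondroitin sulfotransferase, rose to 43.3 ± 10.4 FPKM in intermediates, against 3.89 ± 1.06 in MEF (limma adjusted p = 8.37e-07), and Chsy3, a chondroitin synthase, fell to 0.454 ± 0.412 FPKM, against 8.16 ± 2.31 (adjusted p = 6.66e-07). In XEN cells relative to pluripotent cells, 6 of 15 rose and none fell, where 10.9% of all tested genes were called higher and 18.6% lower. Chst15 had 40.0 ± 15.6 FPKM in XEN cells and 1.11 ± 0.538 in pluripotent cells (adjusted p = 1.37e-09).

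In CiPSC relative to intermediates, 8 of the 15 fell and 1 rose, where 18.2% of all tested genes were called lower and 14.8% higher. Chst15 fell to 1.03 ± 0.557 FPKM in CiPSC, against 43.3 ± 10.4 in intermediates (adjusted p = 1.47e-10). Dse, the epimerase that makes dermatan sulfate, rose to 25.9 ± 6.38 FPKM in CiPSC, against 7.31 ± 1.40 in intermediates (adjusted p = 5.72e-06). Dse was also lower in intermediates than in XEN cells, with 7.31 ± 1.40 FPKM in intermediates and 21.5 ± 5.39 in XEN cells (adjusted p = 0.000313).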
